A study of Mus musculus with 32 samples.

Results

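The genes described are 37 genes of the unfolded protein response and the integrated stress response, followed in mouse liver after lipopolysaccharide (LPS). They were chosen by name: a gene was a member where the gene name on the array equalled one on a list of stress sensors, transcription factors, chaperones, folding enzymes, degradation factors and downstream targets. Of the 37 names, 36 were on the array, and all 36 passed the filter on dim probes, among 19204 genes tested. The remaining one, Ppp1r15a, which encodes a phosphatase subunit that reverses the translational block, was on the array only under its older symbol Myd116 and is given separately.

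Whole-genome Agilent arrays measured 32 liver samples in 6 groups, each taken as 1 mouse. Wild-type mice (E2F1+/+, strain given as B6x126 F2) received saline (6 mice), LPS for 6 h (4 mice) or LPS for 20 h (6 mice). E2f1 knockout mice (E2F1-/-, on a B6;129 strain background by the label) received the same, with 6, 4 and 6 mice. All injections were systemic. Both saline groups were labelled 20 h, so the comparison of 6 h LPS with saline also differs in time after injection. The wild-type mice were an F2 cross and the knockout mice a separate line, so genotype and strain cannot be told apart. The dose of LPS, the age and sex of the mice and the deleted part of E2f1 were not given in the sources used here.

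When unfolded proteins build up in the endoplasmic reticulum (ER), the sensors IRE1 (Ern1), PERK (Eif2ak3) and ATF6 signal to the nucleus. IRE1 and ATF6 act through the factors XBP1 and cleaved ATF6, which drive genes for chaperones, folding enzymes and ER-associated degradation. PERK, like other kinases of the integrated stress response, phosphorylates eIF2 alpha, which slows translation but favours translation of ATF4, and ATF4 and its target CHOP (Ddit3) then drive genes of amino acid supply and stress adaptation. Hepatocytes secrete large amounts of protein, and the acute phase response to LPS adds to that load.

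Levels are given as log2 of the processed signal above the 75th percentile of the same array, so that a level of 0 is that percentile. A gene was called where its adjusted p was below 0.05 in limma's fit over all 32 arrays and 19204 genes, with Benjamini-Hochberg adjustment. Some counts of members at an unadjusted p below 0.05 are given as well. The share of all genes at that threshold was not computed, so such counts cannot be set against the shares of all genes called. The 75th percentile of the arrays ranged from 282 to 1138 intensity units, and 20203 to 28891 spots per array were well above background. Hepatocyte markers were high throughout (summed log2 level 10.1 to 11.8), while the extraction text speaks of lung. Of 5 lung epithelium markers, Sftpc and Sftpb were well above background on 0 arrays, Scgb1a1 on 15, Sftpa1 on 27 and Sftpd on 29, and the last 2 rose in wild-type livers, Sftpa1 by 1.90 after 6 h (adjusted p = 0.0284) and 4.52 after 20 h (adjusted p = 1.12e-06), Sftpd by 2.93 (adjusted p = 0.00357) and 3.08 (adjusted p = 0.000632). Their part in the members' values was not tested. Signal was from bulk tissue, so fewer cells of a type and less RNA per cell cannot be told apart.

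2 arrays stood apart from their groups. Along the wild-type 6 h response of all genes other than the members, scaled so that wild-type saline averages 0 and wild-type 6 h LPS averages 1, the library labelled knockout saline replicate 1 lay at 0.885, against -0.0051 to 0.0573 for the other 5 of its group. The library labelled knockout 6 h LPS replicate 1 lay at 0.127, against 0.896 to 0.976 for the other 3. Both were hybridised on the same slide. Knockout results are therefore given with all arrays and without these 2. A further array, knockout 20 h LPS replicate 4, also lay low in its group and was kept in both. Along the wild-type 20 h response, scaled likewise, it lay at 0.354, against 0.960 to 1.06 for the rest of its group. The E2f1 signal itself was not lower in the labelled knockout: on the first of 2 probes it ranged from -4.85 to -3.32 in wild-type saline livers and from -4.44 to -3.28 in the other 5 knockout saline livers, and on the second from -5.05 to -2.30 and from -4.55 to -2.56. At 6 h of LPS it was higher in the other 3 knockout livers without overlap, at -3.39 to -2.29 against -5.43 to -4.61 on the first probe and -3.01 to -1.65 against -4.28 to -3.27 on the second. At 20 h the knockout livers ranged from -4.88 to -1.85 and the wild-type livers from -5.79 to -4.50 on the first probe, and from -4.04 to -0.228 and from -6.21 to -4.03 on the second, ranges that overlapped. In wild-type livers the first probe was well above background on 1 of 4 arrays at 6 h and 3 of 6 at 20 h. The second was on 4 of 4 and 2 of 6, so these differences rest in part on values below background. Since the deleted part is not known, the E2f1 signal does not check the labels.

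The sequences below show the elements that are known to recruit the factors of this pathway, in the windows from 250 bases before to 50 bases after the RefSeq transcription start (GRCm38.p6), for members on which the results turn. The windows of 35 of the 37 members were held in the sequence table. The ER stress response element (ERSE), bound by ATF6 and XBP1 together with NF-Y, is CCAAT and CCACG with 9 bases between them. It occurred on either strand in 10 of the 35 windows (28.6%), against 0.137% of all 27025 gene windows. These were 6 of 9 ER chaperone genes, 2 of 5 oxidative folding genes and 2 of 6 degradation genes, with 0 of 9 ATF4 and CHOP targets (Ppp1r15a included), 0 of 4 stress transcription factors and 0 of 2 sensors. Capitals mark the fixed letters of an element. An element on the strand opposite to the gene reads CGTGG first and ATTGG last. Hspa5, Hsp90b1, Creld2, Syvn1 and Derl3 are shown as genes called higher at 20 h in wild-type mice, and Canx as one with the element that was not called.
Hspa5, chr2:34772005-34772063, plus strand: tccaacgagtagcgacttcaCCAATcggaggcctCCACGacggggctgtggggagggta
Hsp90b1, chr10:86705513-86705676, minus strand: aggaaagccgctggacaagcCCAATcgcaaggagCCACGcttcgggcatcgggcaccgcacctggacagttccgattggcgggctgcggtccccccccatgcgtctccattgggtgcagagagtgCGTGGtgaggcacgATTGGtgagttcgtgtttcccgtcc
Canx, chr11:50325780-50325838, minus strand: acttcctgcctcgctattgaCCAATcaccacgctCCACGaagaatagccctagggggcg
Creld2, chr15:88819500-88819558, plus strand: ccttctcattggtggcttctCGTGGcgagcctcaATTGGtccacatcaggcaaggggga
Syvn1, chr19:6046512-6046570, plus strand: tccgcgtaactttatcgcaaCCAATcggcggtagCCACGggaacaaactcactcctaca
Derl3, chr10:75893222-75893280, plus strand: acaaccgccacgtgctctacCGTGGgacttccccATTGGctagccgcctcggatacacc

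2 further elements are shown, a shorter element of the same branch and one of the ATF4 branch. The shorter element, ERSE-II, ATTGG and CCACG with 1 base between them, lay before the start of Herpud1 and, within the transcribed part, in Dnajb11 (5.71% of member windows against 0.0444% of all). The amino acid response element, bound by ATF4 with C/EBP partners and searched as TGATGNAAT on either strand, lay in 1 member window, that of Nupr1 (2.86% against 1.08%). The unfolded protein response element TGACGTGG lay in 0 member windows (0.714% of all), and the cyclic AMP response element TGACGTCA in 1, that of Ppp1r15a (2.86% against 2.03%). A match is a description of these letters in this window and not of a bound site.
Herpud1, chr8:94386357-94386407, plus strand: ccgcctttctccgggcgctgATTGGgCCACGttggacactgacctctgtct
Nupr1, chr7:126625553-126625601, minus strand: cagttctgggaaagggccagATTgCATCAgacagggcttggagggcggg

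**Figure D1:**
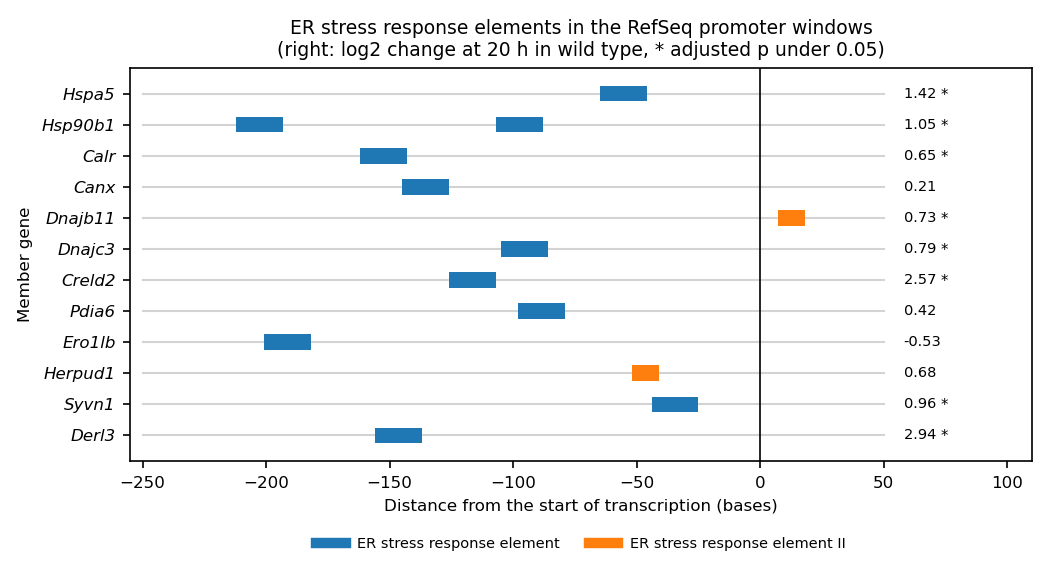
Positions of ERSE (blue) and ERSE-II (orange) matches in the 12 member windows that hold one, in bases from the transcription start, with the wild-type log2 change at 20 h of LPS at the right and an asterisk where its adjusted p was below 0.05. Of the 10 genes with an ERSE, 7 were called higher at 20 h.

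At 20 h of LPS in wild-type livers, 7 of the 10 with the element were called higher, with a median log2 change of 0.88. Of the 26 other measured members 14 were, with a median of 0.94, where 16.5% of all genes tested were called higher. Those 26 include Atf6 and Hyou1, whose windows were not held and so were not searched for the element. At 6 h, 0 of the 10 were higher and 1 was lower (median -0.03), and of the 26 others 5 were higher and 3 lower (median 0.51). Over all genes 12.5% were higher and 16% lower.

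In wild-type livers the members were called higher mainly at 20 h. Called higher were 5 of 36 members at 6 h and 21 of 36 at 20 h, while 4 were lower at 6 h and 0 at 20 h. Over all genes tested, 28.5% were called at 6 h and 36.6% at 20 h, those called higher were 12.5% and 16.5%, and those called lower 16% and 20.1%. The share of members called higher was 13.9% at 6 h and 58.3% at 20 h with all arrays. One of the 5 called at 6 h is Slc7a11, which was well above background on no saline array, so the 13.9% includes a call that rests on values below background. The median log2 change of the members was 0.36 at 6 h and 0.92 at 20 h, beside 0.01 and -0.02 over all genes. Both comparisons share the 6 saline livers. Set directly against the 6 h livers, the 20 h livers had 18 members higher and 2 lower, where 34.3% of all genes were called, 17.1% higher and 17.2% lower.

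In the knockout livers the counts turned on the 2 arrays that stood apart. With all arrays, 0 members were called at 6 h (9 at an unadjusted p below 0.05), where 2.61% of all genes were called, and 7 were higher and 1 lower at 20 h, where 26.3% were called, 11.7% higher. Without the 2 arrays, 18 members were higher and 1 lower at 6 h (29.2% of all genes called, 12.9% higher), and 13 were higher and 1 lower at 20 h (34.9% called, 16% higher). The wild-type counts became 9 higher and 4 lower at 6 h (25% of members higher, with 32.1% of all genes called and 14.2% higher), 22 higher at 20 h (41.3% called) and 20 higher and 2 lower between the times (38.9% called, 19.7% lower), where the wild-type arrays are the same and the shared estimate of spread differs.

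Markers of several cell types moved beside these changes. Of 7 neutrophil markers 6 rose at both times in wild-type livers, and their summed log2 level was 1.14 to 3.23 in saline, 5.79 to 6.59 at 6 h and 5.72 to 7.03 at 20 h. Hepatocyte markers had 0 higher and 4 lower of 7 at 20 h, and Kupffer cell markers 1 higher and 5 lower. The part of these shifts in the members' changes was not tested.

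**Figure D2:**
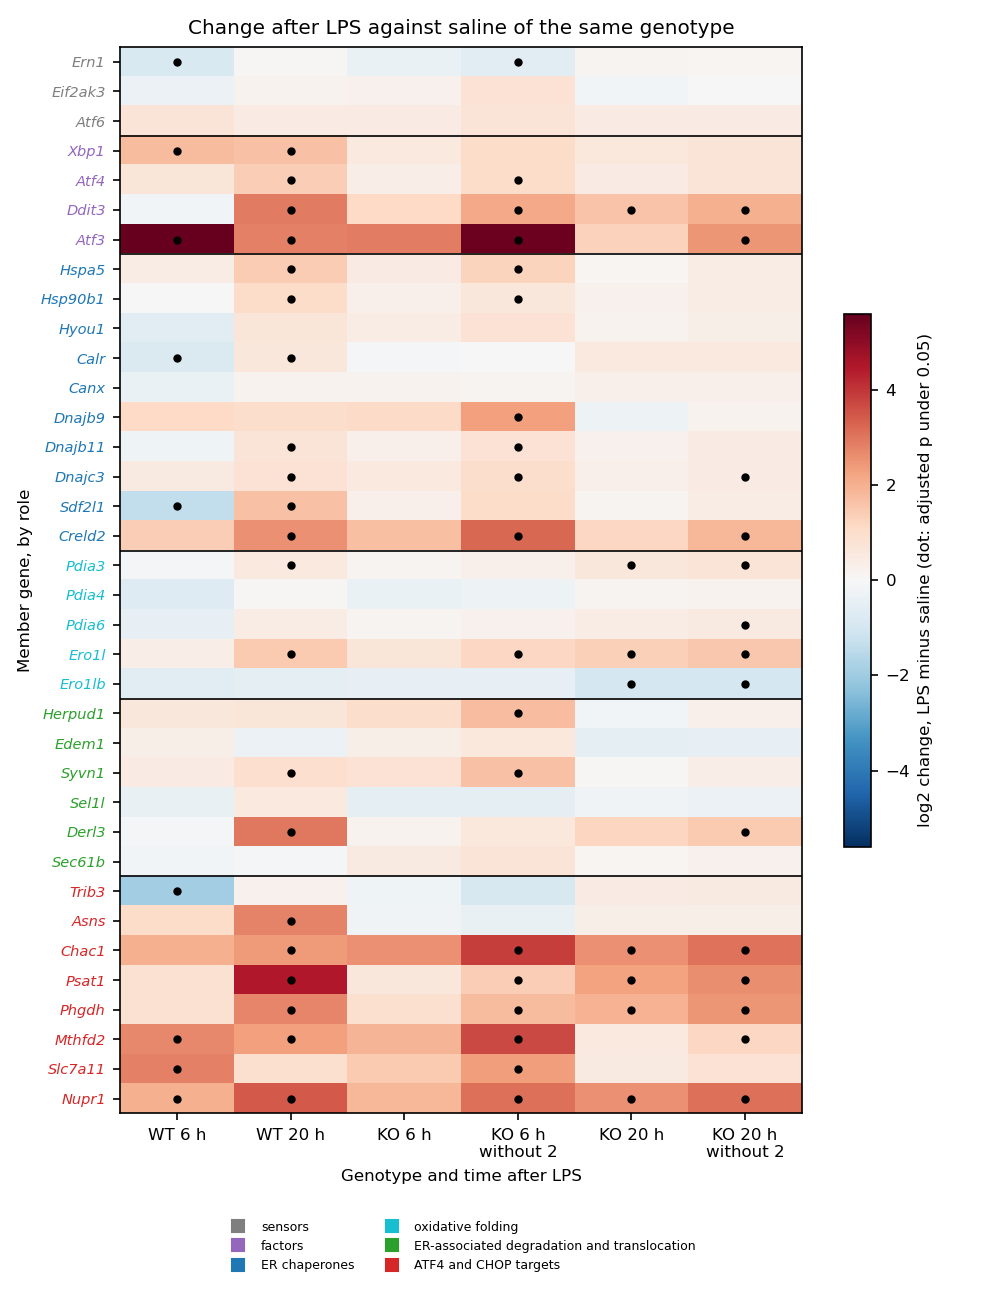
Log2 changes of the members after LPS against saline of the same genotype, by role, for wild type at 6 h and 20 h and for the knockout with all arrays and without the 2 arrays that stood apart (colour scale from -5.6 to 5.6, a dot where the adjusted p was below 0.05). The dots in the wild-type columns increase from 9 at 6 h to 21 at 20 h, and those of the knockout 6 h column from 0 to 19 once the 2 arrays are left out.

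Of the 3 sensors, 0 were called higher at either time in wild-type livers, where 12.5% of all genes were higher at 6 h and 16.5% at 20 h. Ern1, which encodes the kinase and RNase that splices Xbp1 mRNA, ranged from -1.36 to -0.37 (median -0.80) in wild-type saline livers and read -1.70, -1.87, -1.54 and -1.56 in the 4 livers at 6 h. These groups did not overlap, and Ern1 fell by 0.85 ± 0.20 (log2, SE; adjusted p = 0.00181), with values of -0.49 and -0.98 within scan dates 1 and 2, each of which holds 1 wild-type liver at 6 h. At 20 h it was back at -1.03 to -0.38, higher than at 6 h by 0.90 ± 0.20 (adjusted p = 0.000803). Knockout Ern1 ranged from -1.42 to -0.83 in saline livers, read -1.08 (replicate 1), -1.68, -1.63 and -1.36 at 6 h and ranged from -1.38 to -0.32 at 20 h. Its change at 6 h was -0.39 with all arrays (adjusted p = 0.261) and -0.58 ± 0.21 without the 2 (adjusted p = 0.0402). Atf6, the membrane-bound factor cleaved in the Golgi, read 2.60, 2.56, 2.94 and 2.99 at 6 h against 1.22 to 2.45 in saline livers, and although those groups did not overlap its change of 0.74 ± 0.34 was not called (adjusted p = 0.103). It ranged from 1.63 to 3.59 at 20 h, and in knockout livers from 1.68 to 2.58 in saline, 1.99 to 3.01 at 6 h and 1.502 to 3.31 at 20 h, where it was called at neither time with or without the 2 arrays. Eif2ak3 was called at neither time in wild-type livers, with a log2 change of 0.20 at 20 h.

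Each of the 4 stress transcription factors was called higher at 20 h in wild-type livers, and 2 of them at 6 h, where 16.5% and 12.5% of all genes were higher. Atf3, an immediate stress-response factor downstream of ATF4 and of inflammatory signals, rose at 6 h. Its level was -3.65 to -1.08 (median -2.70) in saline livers and 2.71, 3.73, 2.66 and 2.69 at 6 h, a 48.0-fold rise (log2 5.58 ± 1.07, adjusted p = 0.000281) with no overlap. By 20 h it ranged from -1.28 to 3.04 (median -0.34), overlapping saline. The difference of -2.77 between 20 h and 6 h (adjusted p = 0.0456) was lost when any one of 9 of the 10 livers compared was left out (adjusted p from 0.0523 to 0.115), and held without 20 h replicate 4 (-3.34, adjusted p = 0.0158). The 20 h change of 2.82 ± 0.96 (adjusted p = 0.0219) rested on 1 liver in part, being 2.24 with an adjusted p of 0.0728 without replicate 4 of the wild-type 20 h group. Normexp background correction with quantile normalization also lost the call (1.96, adjusted p = 0.0537).

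Atf3 in knockout livers ranged from -2.59 to -1.46 in saline apart from replicate 1 at 3.86, in the 5 livers with a value. It read 3.39, 3.81 and 3.03 at 6 h and -2.28 in replicate 1, and ranged from -0.82 to 2.60 at 20 h. Its change at 6 h was 2.88 with all arrays (adjusted p = 0.127) and 5.49 ± 0.75 without the 2 (adjusted p = 2.75e-06), and that at 20 h 1.30 (adjusted p = 0.359) and 2.49 ± 0.63 (adjusted p = 0.00318).

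Ddit3, which encodes CHOP, a factor that promotes cell death when stress lasts, was higher at 20 h and not at 6 h (probe at chr10:126732518-126732821, mm9, plus strand). In wild-type saline livers it ranged from -2.03 to -0.81 (median -1.14), and at 6 h it read -1.86, -0.97, -1.24 and -1.63. Those groups overlapped, with a change of -0.16 ± 0.49 (adjusted p = 0.847). The 20 h livers ranged from 1.07 to 2.08 (median 1.66), above every saline and every 6 h liver, 7.43-fold over saline (log2 2.89 ± 0.44, adjusted p = 9.59e-06) and higher than at 6 h by 3.05 ± 0.49 (adjusted p = 2.17e-05).

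Ddit3 in the labelled knockout was high at 6 h already, apart from 1 liver. It read 0.06, 1.55 and 1.59 in 3 of the 6 h livers and -1.38 in replicate 1, and in knockout saline livers it ranged from -1.84 to -0.30 apart from replicate 1 at 1.45. The change at 6 h was 1.09 with all arrays (adjusted p = 0.19) and 2.13 ± 0.37 without the 2 (adjusted p = 6.82e-05). At 20 h the knockout livers ranged from -0.01 to 1.57 (median 0.93), a change of 1.58 ± 0.44 (adjusted p = 0.00826), or 2.001 ± 0.309 without the 2 (adjusted p = 1.56e-05).

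Xbp1, whose spliced form drives chaperone and secretory genes, rose at both times in wild-type livers. It ranged from 2.77 to 4.13 in saline livers, read 5.51, 5.01, 5.39 and 4.52 at 6 h, and ranged from 4.41 to 5.61 in the 5 livers with a value at 20 h. Neither LPS group overlapped saline, with rises of 3.46-fold at 6 h (log2 1.79 ± 0.45, adjusted p = 0.00331) and 3.13-fold at 20 h (log2 1.65 ± 0.42, adjusted p = 0.003). On the values of the authors' deposited table the same fit called neither (1.61, adjusted p = 0.0871, and 1.17, adjusted p = 0.145). The probe reads total Xbp1 mRNA, and splicing was not measured. Knockout Xbp1 ranged from 2.70 to 4.85 in saline, read 3.23 (replicate 1), 5.40, 4.61 and 4.28 at 6 h and ranged from 2.98 to 5.79 at 20 h, all overlapping. It was not called at 6 h with all arrays (0.53, adjusted p = 0.543) or without the 2 (1.02, adjusted p = 0.118), nor at 20 h (0.60, adjusted p = 0.281, and 0.71, adjusted p = 0.177). Atf4, the central factor of the integrated stress response, was 2.57-fold higher at 20 h in wild-type livers (log2 1.36 ± 0.36, adjusted p = 0.00382), from 1.88 to 2.77 in saline to 2.87 to 4.91, and was not called at 6 h (0.68, adjusted p = 0.213). In the knockout its 6 h change was 0.38 with all arrays (adjusted p = 0.652) and 1.04 without the 2 (adjusted p = 0.0394), and its 20 h change 0.48 (adjusted p = 0.345) and 0.70 (adjusted p = 0.0848).

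**Figure D3:**
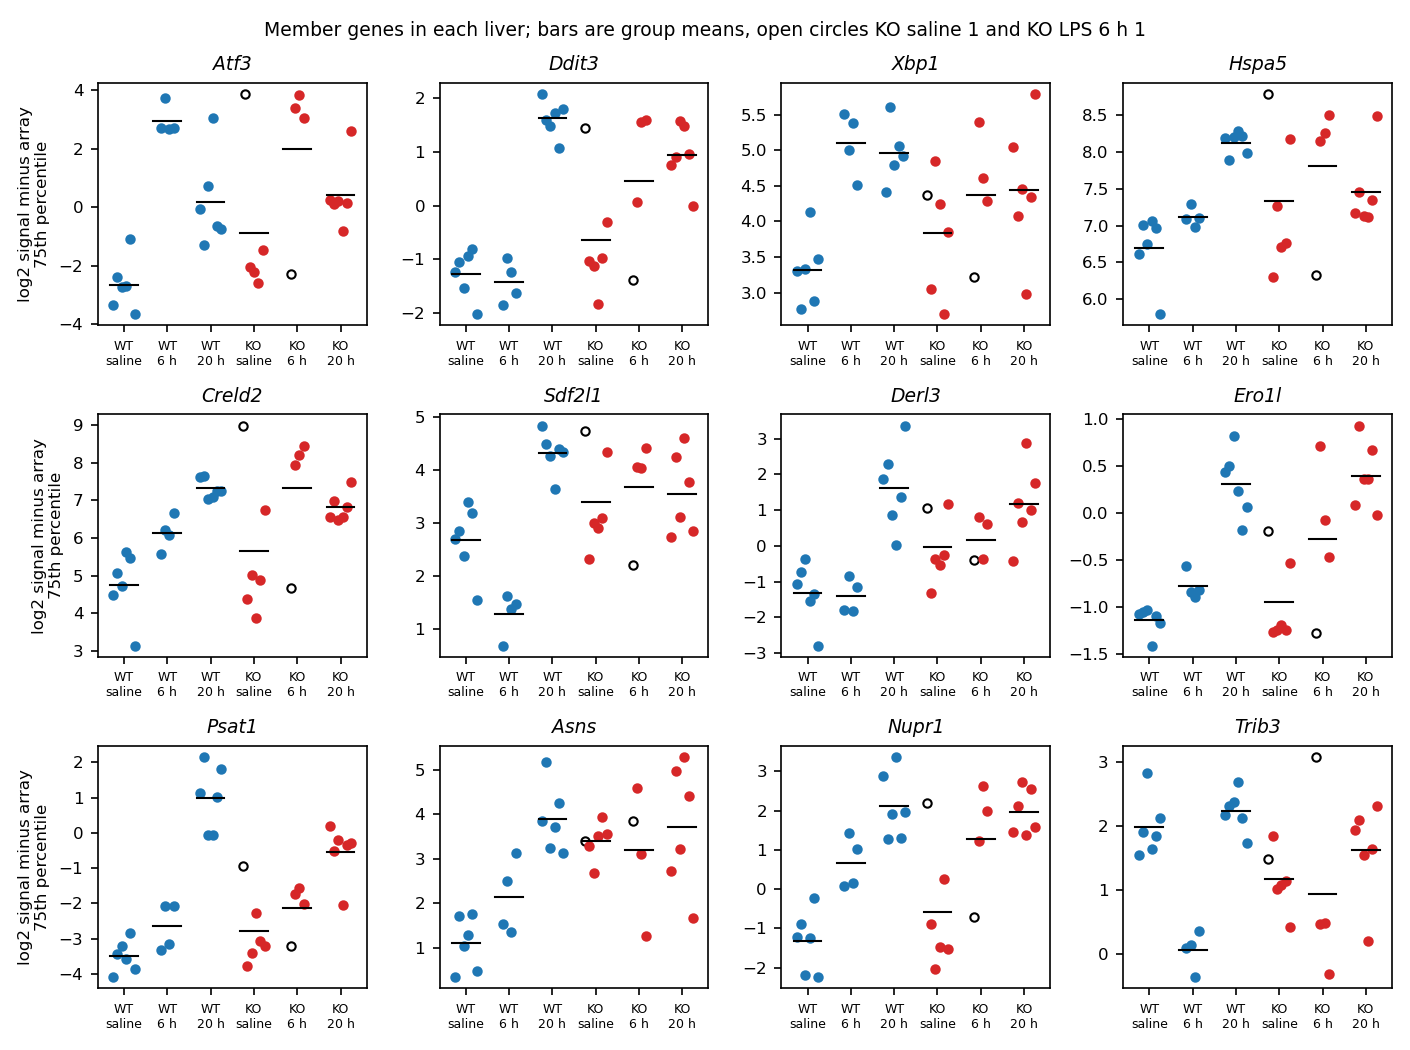
Log2 level above the array's 75th percentile for 12 members in every liver, with group means as bars and open circles for the 2 arrays that stood apart. Among wild-type livers Ddit3, Psat1, Derl3 and Sdf2l1 sit highest at 20 h and Atf3 at 6 h, and the open circles lie with the other treatment of the same genotype in panels such as Creld2 and Atf3.

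Most ER chaperones were called higher at 20 h in wild-type livers. At 6 h 0 of 10 were called higher and 2 were lower with all arrays, where 12.5% of all genes were higher and 16% lower. The median log2 change was -0.10, and its sign turned with the way probes were summarised (0.25 for the mean over probes). On the same wild-type arrays but with the spread estimated without the 2 knockout arrays, 3 were higher at 6 h (Creld2, 1.39, adjusted p = 0.0104, Dnajb9, 1.13, adjusted p = 0.0125, and Dnajc3, 0.49, adjusted p = 0.0274) and 2 lower. At 20 h 7 of 10 were higher and 0 lower, with a median of 0.90 (1.07 within scan date 1 and 0.63 within scan date 2), or 8 of 10 without the 2 arrays, where 16.5% and 19% of all genes were higher. Between 6 h and 20 h, 6 of 10 were called higher at 20 h, where 17.1% of all genes were higher.

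Hspa5, which encodes BiP, the chaperone that holds the sensors inactive (probe at chr2:34631630-34631689, mm9, plus strand), ranged from 5.80 to 7.06 (median 6.86) in wild-type saline livers and read 7.09, 7.29, 6.99 and 7.10 at 6 h. The 20 h livers ranged from 7.89 to 8.29, above every saline and 6 h liver, 2.68-fold over saline (log2 1.42 ± 0.35, adjusted p = 0.00232). Its 6 h change was 0.42 (adjusted p = 0.466). The difference of 1.01 between 20 h and 6 h was called with all arrays (adjusted p = 0.0493) but lost when any one of the 10 livers compared was left out (0.96 to 1.06, adjusted p from 0.0528 to 0.1).

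Creld2, an ER-resident disulfide isomerase-like protein (probe at chr15:88656997-88657056, mm9, plus strand), gave the largest chaperone change at 20 h. It ranged from 3.14 to 5.62 in wild-type saline livers, read 5.57, 6.22, 6.09 and 6.68 at 6 h, and ranged from 7.04 to 7.66 at 20 h, 5.95-fold over saline (log2 2.57 ± 0.62, adjusted p = 0.00181). The 20 h livers lay above all others of this genotype. In the knockout, Creld2 read 7.95, 8.21 and 8.44 at 6 h and 4.68 in replicate 1, while saline livers ranged from 3.86 to 6.74 apart from replicate 1 at 8.99. Its 6 h change was 1.67 with all arrays (adjusted p = 0.156) and 3.22 ± 0.47 without the 2 (adjusted p = 6.03e-06). For 20 h the same 2 values were 1.17 (adjusted p = 0.17) and 1.84 (adjusted p = 0.000595).

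Sdf2l1, a component of the BiP chaperone cycle (probe at chr16:17130426-17130485, mm9, minus strand), moved in both directions in wild-type livers. In saline it ranged from 1.54 to 3.40 (median 2.78), and at 6 h it read 0.69, 1.63, 1.38 and 1.47, of which only 1.63 lay within the saline range. It fell by 1.39 ± 0.46 (adjusted p = 0.022), a call lost without replicate 1 of the 6 h group (-1.19, adjusted p = 0.0871), without replicate 4 of the saline group (-1.24, adjusted p = 0.0513) and with slide as a fixed block (-1.03, adjusted p = 0.193). By 20 h it ranged from 3.64 to 4.84, 3.13-fold over saline (log2 1.65 ± 0.41, adjusted p = 0.0022) and 8.21-fold over 6 h (log2 3.04 ± 0.46, adjusted p = 9.05e-06). Knockout livers ranged from 2.32 to 4.34 in saline apart from replicate 1 at 4.74 and from 2.73 to 4.60 at 20 h. The knockout change at 6 h was 0.28 with all arrays (adjusted p = 0.791) and 1.04 without the 2 (adjusted p = 0.0724), and that at 20 h 0.15 (adjusted p = 0.823) and 0.42 (adjusted p = 0.392).

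Of the other chaperones called at 20 h in wild-type livers, Hsp90b1, the ER HSP90 protein GRP94, rose by 1.05 ± 0.21 (adjusted p = 0.00033). The BiP cochaperones Dnajc3 and Dnajb11 rose by 0.79 (adjusted p = 0.00311) and 0.73 (adjusted p = 0.0315). The Dnajb11 call was lost without saline replicate 6 (0.48, adjusted p = 0.119), 20 h replicate 1 (0.72, adjusted p = 0.0512) or 20 h replicate 3 (0.71, adjusted p = 0.057). Calr, the lectin chaperone calreticulin, fell by 0.81 ± 0.24 at 6 h (adjusted p = 0.0104) without overlap and rose by 0.65 ± 0.21 at 20 h (adjusted p = 0.0174), the latter not passing without replicate 6 of the 20 h group (0.49, adjusted p = 0.0614). Canx, the membrane-bound partner of calreticulin, carries an ERSE like Hspa5 but ranged from 4.29 to 5.32 in saline livers, read 4.39, 4.34, 4.71 and 5.07 at 6 h and ranged from 4.78 to 5.61 at 20 h, with a change of 0.21 (adjusted p = 0.483). Its 3 probes disagreed in sign at 20 h (-0.81 to 0.21). Knockout Canx ranged from 4.43 to 5.17 in saline, 4.57 to 5.27 at 6 h and 4.30 to 5.52 at 20 h and was not called. Dnajb9, an XBP1 target and cochaperone, had a change of 1.01 at 20 h (adjusted p = 0.112), and Hyou1, the exchange factor of BiP, one of 0.68 (adjusted p = 0.114), on probes that disagreed (0.68 to 2.61).

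In the knockout, 0 of 10 chaperones were called at either time with all arrays, with medians of 0.35 at 6 h and 0.24 at 20 h. Of all genes, 2.61% were called there at 6 h (1.58% higher) and 26.3% at 20 h (11.7% higher). Without the 2 arrays 6 of 10 were higher at 6 h (median 0.89, with 12.9% of all genes higher) and 2 of 10 at 20 h (median 0.42, with 16% of all genes higher). Both counts rest on the same saline livers. Hspa5 ranged from 6.30 to 8.17 in knockout saline livers apart from replicate 1 at 8.78. It read 8.14, 8.25 and 8.50 at 6 h in the knockout and 6.32 in replicate 1, a change of 0.47 with all arrays (adjusted p = 0.541) and 1.26 ± 0.33 without the 2 (adjusted p = 0.00418). In the 20 h livers it ranged from 7.11 to 8.48 (median 7.26) with a change of 0.12 (adjusted p = 0.838), or 0.41 without the 2 (adjusted p = 0.259). Knockout Dnajb9 had a 6 h change of 1.09 with all arrays (adjusted p = 0.257) and 2.30 without the 2 (adjusted p = 4.82e-05), and its direct difference between 20 h and 6 h was -1.38 (adjusted p = 0.0899) and -2.10 (adjusted p = 0.000216). In that direct comparison of knockout 20 h with 6 h livers, 1 member was higher and 0 lower with all arrays (15.6% of all genes called, 8.34% lower), and without the 2 arrays 2 were higher and 8 lower (22.4% called, 10.9% lower).

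Of the genes of oxidative folding, 2 of 5 were called higher at 20 h in wild-type livers (median 0.42), where 16.5% of all genes were higher, and 0 of 5 were called at 6 h. Ero1l, the oxidase that recharges protein disulfide isomerase, ranged from -1.42 to -1.04 in saline livers, read -0.57, -0.84, -0.90 and -0.82 at 6 h and ranged from -0.18 to 0.82 at 20 h. All 3 groups were separate, and the change was 0.36 at 6 h (adjusted p = 0.351) and 2.74-fold at 20 h (log2 1.45 ± 0.25, adjusted p = 4.21e-05). Knockout livers ranged from -1.27 to -0.54 in saline apart from replicate 1 at -0.19, read -1.28 (replicate 1), 0.71, -0.08 and -0.47 at 6 h and ranged from -0.02 to 0.93 at 20 h. Ero1l rose there at 20 h by 1.35 ± 0.25 with all arrays (adjusted p = 0.00023) and 2.83-fold without the 2 (adjusted p = 4.09e-06), and its 6 h change was 0.67 (adjusted p = 0.151) and 1.16 ± 0.25 (adjusted p = 0.000833).

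Pdia3, the glycoprotein disulfide isomerase ERp57, rose at 20 h by 0.56 ± 0.16 in wild-type (adjusted p = 0.00678) and 0.61 ± 0.16 in knockout livers (adjusted p = 0.00511, or 0.71 ± 0.16 with an adjusted p of 0.000878 without the 2 arrays). The groups overlapped in wild type, at 4.20 to 4.65 in saline and 4.58 to 5.37 at 20 h, with 4.48, 4.40, 4.08 and 4.34 at 6 h. Knockout livers ranged from 4.13 to 5.14 in saline, 4.70 to 4.96 at 6 h and 4.98 to 5.55 at 20 h. Pdia6, another isomerase, was not called at 20 h in wild type (0.42, adjusted p = 0.0758), with 5.28 to 6.31 in saline, 5.37, 5.67, 5.57 and 5.65 at 6 h and 6.21 to 6.94 at 20 h. Its 4 probes disagreed in sign at 20 h in wild type (-0.19 to 1.58). In knockout livers it ranged from 5.68 to 6.62 in saline, 6.15 to 6.47 at 6 h and 6.25 to 6.90 at 20 h, with a 20 h change of 0.397 (adjusted p = 0.118), or 0.497 without the 2 arrays (adjusted p = 0.0427). Ero1lb, the second ERO1 oxidase, went the other way in knockout livers at 20 h, where it fell by 0.98 ± 0.29 (adjusted p = 0.0139; -1.003, adjusted p = 0.0142, without the 2 arrays; -0.76, adjusted p = 0.0538, without 20 h replicate 5 and -0.78, adjusted p = 0.0519, without saline replicate 6), and had a change of -0.53 in wild type (adjusted p = 0.16). Its probes disagreed in sign there (-0.53 to 1.12).

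Among 6 genes of ER-associated degradation, 2 were called higher at 20 h in wild-type livers (median 0.61), where 16.5% of all genes were higher, and 0 were called at 6 h. Derl3, a derlin that passes misfolded proteins out of the ER, ranged from -2.79 to -0.36 in saline livers and read -1.79, -0.84, -1.81 and -1.14 at 6 h. The 20 h livers ranged from 0.02 to 3.37 (median 1.62), above every saline and 6 h liver, 7.68-fold over saline (log2 2.94 ± 0.52, adjusted p = 6.77e-05). Knockout livers ranged from -1.32 to 1.18 in saline, read -0.40 (replicate 1), 0.81, -0.37 and 0.61 at 6 h and ranged from -0.42 to 2.89 at 20 h, all overlapping. The knockout change at 6 h was 0.20 (adjusted p = 0.889), or 0.61 without the 2 arrays (adjusted p = 0.542), and its 20 h change was 1.22 (adjusted p = 0.082), or 1.44 without the 2 arrays (adjusted p = 0.0393). Derl3 and several chaperones are abundant in plasma cells and pancreatic acinar cells. Of 7 plasma cell markers measured, 1 rose at 20 h in wild-type livers (Sdc1, 1.19, adjusted p = 0.000747) and 2 fell (Igj by 1.63, adjusted p = 0.0316, and Igh-6 by 1.57, adjusted p = 0.00187), and Tnfrsf17 was well above background on 0 arrays. The summed log2 level of the plasma cell markers was 3.52 to 3.95 in wild-type saline livers and 4.33 to 5.24 at 20 h. That sum rests mainly on Sdc1, which alone ranged from 4.26 to 5.22 in the wild-type 20 h livers. Igj ranged there from -5.72 to -4.38. The higher sum is therefore that of Sdc1 and does not show a rise of the plasma cell markers as a set. Of 8 acinar markers listed, 3 passed the filter and 0 of these were called, with a summed log2 level of -1.08 to -0.35 in saline and -0.87 to -0.16 at 20 h. Ctrb1 was well above background on 32 arrays, Ela1 on 30, Ela2 on 4, Prss2 on 2, Cpa1 on 1 and Pnlip on 0. The part of such cells in these values was not tested.

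Syvn1, the ubiquitin ligase HRD1, ranged from 5.10 to 6.86 in wild-type saline livers, read 6.28, 6.79, 6.63 and 6.75 at 6 h and ranged from 6.90 to 7.30 at 20 h. Its change of 0.96 ± 0.36 was called with all arrays (adjusted p = 0.0359) but lost when any of 7 single livers was left out: 20 h replicates 1, 3, 4 and 5 and saline replicates 1, 3 and 6 (adjusted p from 0.0524 to 0.108, with the lowest change, 0.75, without saline replicate 6). In knockout livers it ranged from 5.75 to 7.34 in saline apart from replicate 1 at 8.18, read 7.89, 7.78 and 8.05 at 6 h and 5.82 in replicate 1, and ranged from 6.12 to 6.902 at 20 h. The knockout change at 6 h was 0.80 with all arrays (adjusted p = 0.252) and 1.64 ± 0.31 without the 2 (adjusted p = 0.000175). Herpud1, which helps assemble the HRD1 complex, ranged from 5.51 to 6.63 in wild-type saline livers, read 6.11, 6.79, 6.72 and 6.72 at 6 h and ranged from 5.36 to 7.83 at 20 h, with a change of 0.68 at 20 h (adjusted p = 0.242). Knockout Herpud1 ranged from 5.29 to 6.45 in saline apart from replicate 1 at 8.41, read 6.45 (replicate 1), 7.10, 8.01 and 8.06 at 6 h and ranged from 4.99 to 7.55 at 20 h. Its change at 6 h was 0.99 with all arrays (adjusted p = 0.247) and 1.71 ± 0.47 without the 2 (adjusted p = 0.00622). Edem1 and Sel1l, which select and pass on glycoproteins for degradation, and Sec61b, a subunit of the translocon, were not called at 20 h in wild type, with changes of -0.33, 0.55 and -0.12. The probes of Edem1 (-0.33 to 0.54) and of Sel1l (-0.41 to 0.55) disagreed in sign there.

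Of the 8 ATF4 and CHOP targets measured under their own names, most rose at 20 h in wild-type livers and some already at 6 h. In these livers 3 were higher and 1 lower at 6 h (median 1.52, and 1.41 and 1.64 within scan dates 1 and 2, each with 1 wild-type liver at 6 h), and 6 were higher and 0 lower at 20 h (median 2.57, and 2.54 and 2.59 within the same dates), where 12.5% and 16.5% of all genes were higher. One of the 8, Slc7a11, was well above background on no saline array of either genotype. Without it, 2 of 7 were higher and 1 lower at 6 h (median 1.03) and 6 of 7 were higher at 20 h (median 2.74), and with it at its bound the medians were 1.504 and 2.57. The 6 h median also depended on how background was treated, being 0.68 after normexp correction with quantile normalization and 0.89 on the authors' deposited table.

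Psat1, an enzyme of serine synthesis (probe at chr19:15979970-15980029, mm9, minus strand), rose at 20 h in wild-type livers. In wild-type saline livers it was well above background in 4 of 6, so that its fold rests in part on values that were not. It ranged there from -4.09 to -2.85 and read -3.32, -2.08, -3.14 and -2.07 at 6 h. By 20 h it ranged from -0.07 to 2.15 (median 1.08), above every other wild-type liver, 22.7-fold over saline (log2 4.50 ± 0.45, adjusted p = 3.58e-08). In knockout livers it ranged from -3.77 to -0.94 in saline, read -3.20 (replicate 1), -1.72, -1.57 and -2.01 at 6 h and ranged from -2.06 to 0.20 at 20 h. The rise at 20 h was 2.24 ± 0.45 with all arrays (adjusted p = 0.000496) and 2.61 ± 0.40 without the 2 (adjusted p = 1.28e-05).

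Phgdh, the first enzyme of the same pathway, rose by 2.74 ± 0.44 at 20 h in wild-type livers (adjusted p = 1.87e-05) and by 1.97 in knockout livers (adjusted p = 0.00144, or 2.47 with an adjusted p of 1.44e-06 without the 2 arrays). Mthfd2, a mitochondrial folate enzyme, rose at both times in wild-type livers, by 2.70 ± 0.72 after 6 h (adjusted p = 0.00532, or 0.0563 with slide as a fixed block) and by 2.30 ± 0.65 after 20 h (adjusted p = 0.00587). Knockout Mthfd2 had a 6 h change of 1.92 with all arrays (adjusted p = 0.115) and 3.68 ± 0.43 without the 2 (adjusted p = 1.83e-07).

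Asns, which makes asparagine and is a standard readout of ATF4 (probe at chr6:7625194-7625253, mm9, minus strand), ranged from 0.34 to 1.77 (median 1.16) in wild-type saline livers and read 1.53, 2.51, 1.36 and 3.14 at 6 h. The 20 h livers ranged from 3.14 to 5.18 (median 3.78), 6.94-fold over saline (log2 2.79 ± 0.53, adjusted p = 0.000141) without overlap. Knockout livers were already at 2.67 to 3.94 in saline, read 3.86 (replicate 1), 4.60, 3.10 and 1.26 at 6 h and ranged from 1.68 to 5.29 at 20 h. The 6 h livers overlapped saline, and the lowest of them is one that is kept when the 2 arrays are left out. The knockout change at 20 h was 0.32 with all arrays (adjusted p = 0.702) and without the 2 (adjusted p = 0.707), on groups that overlapped.

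Nupr1, a small stress-induced chromatin protein, rose at both times in wild-type livers. It ranged from -2.24 to -0.21 in saline, read 0.09, 1.42, 0.16 and 1.03 at 6 h and ranged from 1.28 to 3.37 at 20 h, with neither LPS group overlapping saline. The rise was 2.01 ± 0.64 at 6 h (adjusted p = 0.0191), not passing without replicate 2 of that group (1.76, adjusted p = 0.0737), and 10.9-fold at 20 h (log2 3.45 ± 0.58, adjusted p = 3.16e-05). Knockout livers ranged from -2.04 to 0.27 in saline apart from replicate 1 at 2.19, read -0.71 (replicate 1), 1.23, 2.62 and 2.01 at 6 h and ranged from 1.38 to 2.73 at 20 h. The knockout change at 20 h was 2.55 ± 0.58 with all arrays (adjusted p = 0.00162) and 3.10 ± 0.44 without the 2 (adjusted p = 4.91e-06), and that at 6 h 1.86 (adjusted p = 0.09) and 3.08 ± 0.53 (adjusted p = 5.47e-05). Chac1, which degrades glutathione, rose at 20 h by 2.39 ± 0.75 in wild-type (adjusted p = 0.0131) and by 2.54 in knockout livers (adjusted p = 0.0126, or 3.03 with an adjusted p of 0.00101 without the 2 arrays).

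2 targets were not called at 20 h. Slc7a11, the cystine transporter, was well above background on 0 of 6 wild-type saline arrays, 3 of 4 at 6 h and 1 of 6 at 20 h. It read -3.21, -3.57, -3.82 and -4.35 at 6 h and -8.06 to -5.68 in saline, so it was at least 3.94-fold higher at 6 h, where the bound sets the 6 h mean against the lowest signal that was well above background. The fit's adjusted p of 0.00134 rests on saline values below background, and the gene passed the filter only through LPS arrays, so its call is not taken as support. Slc7a11 is still among the members and targets counted as higher at 6 h, except where it is said to be left out. At 20 h it ranged from -6.18 to -4.89 and was not called (adjusted p = 0.238). In knockout livers it was well above background on 0 of 6 saline arrays, 2 of 4 at 6 h and 3 of 6 at 20 h, and read -5.80 (replicate 1), -3.44, -3.68 and -3.58 at 6 h, -7.73 to -3.94 in saline and -6.36 to -4.51 at 20 h. Trib3, a pseudokinase that restrains CHOP and AKT signalling, read 0.09, 0.14, -0.36 and 0.36 at 6 h in wild-type livers against 1.55 to 2.83 in saline, and fell by 1.93 ± 0.43 (adjusted p = 0.00121) without overlap. At 20 h its change was 0.25 (adjusted p = 0.65).

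Ppp1r15a, read under its older symbol Myd116, ranged from -0.56 to -0.11 in wild-type saline livers, from 1.06 to 2.35 at 6 h and from 0.06 to 2.90 at 20 h. The gene was higher than in saline by 1.83 ± 0.62 after 6 h (adjusted p = 0.0267) and by 1.43 ± 0.56 after 20 h (adjusted p = 0.0447). It is not counted in any number of members given here.

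Averaged over the genes of a class and set to the wild-type saline mean, the 10 chaperones lay between -0.84 and 0.45 in wild-type saline livers and between -0.22 and 0.12 at 6 h, so the 6 h livers fell inside the saline range. The targets are averaged here without Slc7a11, whose saline values lay below background. The other 7 lay between -0.60 and 0.67 in saline and between 0.63 and 1.68 at 6 h, so that the lowest 6 h liver overlapped the saline range, whereas with Slc7a11 the 6 h livers (0.89 to 1.74) lay above it (up to 0.70). At 20 h both classes were above every saline liver, at 0.85 to 1.19 for chaperones and 2.29 to 2.97 for the 7 targets.

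In knockout livers other than the 2 that stood apart, chaperones lay at -0.30 to 0.83 in saline, 1.07 to 1.42 at 6 h and 0.37 to 0.86 at 20 h. The 6 h livers were thus above all others of that genotype, and the 20 h livers overlapped saline. The 7 targets lay at -0.11 to 0.83 in saline, 1.61 to 2.33 at 6 h and 1.19 to 2.58 at 20 h. Knockout saline replicate 1 lay at 1.51 for chaperones and 2.55 for the targets, and knockout 6 h replicate 1 at -0.28 and 0.73.

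The difference of the class means within a liver, the 7 targets minus the chaperones, ranged from -0.44 to 0.36 in wild-type saline livers, from 0.60 to 1.56 at 6 h and from 1.17 to 2.12 at 20 h. Neither LPS range overlapped saline, and the 6 h and 20 h ranges overlapped each other. In knockout livers it ranged from -0.93 to 0.91 in the 5 other saline livers, from 0.19 to 1.26 in the 3 other 6 h livers and from 0.47 to 1.996 at 20 h, ranges that overlapped throughout. The overlap of the 20 h range rests on replicate 4 at 0.47. The rest of the 20 h livers lay at 1.56 to 1.996, above both of the other ranges. The class means pool members with differing spread, and no p is given for them.

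**Figure D4:**
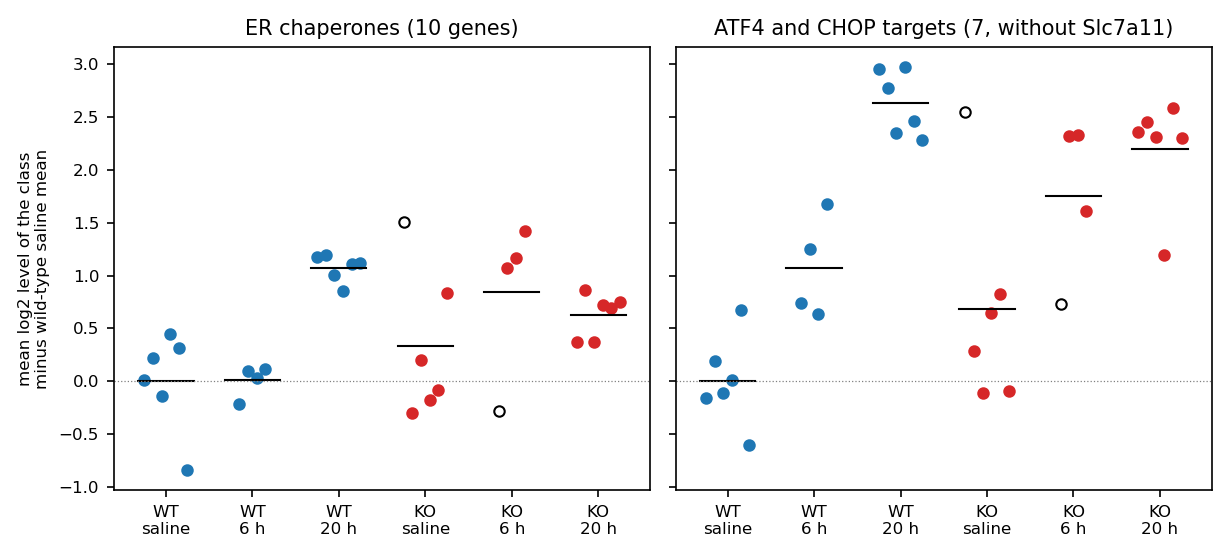
Class mean of log2 levels in each liver above the wild-type saline mean, for the 10 ER chaperones and the 7 ATF4 and CHOP targets other than Slc7a11, with group means as bars and open circles for the 2 arrays that stood apart. Wild-type chaperones at 6 h (-0.22 to 0.12) sit inside the saline range, while of the targets (0.63 to 1.68) all but the lowest 6 h liver sit above it.

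Compared between genotypes at 6 h of LPS, several members were higher in the labelled knockout livers than in wild-type livers. With all arrays 1 of 36 members was called, Sdf2l1, where 1.26% of all genes were called, 0.88% higher and 0.38% lower. Without the 2 arrays 6 of 36 were called, all higher in the knockout (Sdf2l1, Ddit3, Creld2, Phgdh, Syvn1 and Dnajb11), where 1.34% of all genes were called and 0.901% were higher. The median difference of the members was 0.57 with all arrays and 0.82 without the 2, beside -0.05 over all genes in the latter. All 10 chaperones were higher in the knockout by sign without the 2 arrays, with a median of 0.99, and 3 of them were called.

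Sdf2l1 at 6 h read 4.05, 4.04 and 4.42 in knockout livers and 2.21 in replicate 1, against 0.69 to 1.63 in wild-type livers. The groups did not overlap with or without replicate 1. The knockout was 5.24-fold higher (log2 2.39 ± 0.50, adjusted p = 0.0135), or by 2.88 ± 0.45 without the 2 arrays (adjusted p = 0.00154). With all arrays the call was lost without replicate 4 of the knockout 6 h group (2.14, adjusted p = 0.0555), without replicate 1 of the wild-type 6 h group (2.19, adjusted p = 0.0686) and with slide as a fixed block (1.85, adjusted p = 0.274).

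Ddit3 at 6 h was higher in the knockout by 1.88 ± 0.54 with all arrays (adjusted p = 0.08) and by 2.49 ± 0.39 without the 2 (adjusted p = 0.00154), where the groups did not overlap. Creld2 was higher by 1.18 (adjusted p = 0.647) and 2.06 ± 0.49 (adjusted p = 0.0281), Phgdh by 1.34 (adjusted p = 0.294) and 1.69 ± 0.40 (adjusted p = 0.0283), and Syvn1 by 0.77 (adjusted p = 0.575) and 1.29 ± 0.32 (adjusted p = 0.0398). Dnajb11 was 1.75-fold higher with all arrays (adjusted p = 0.294) and 2.15-fold without the 2 (adjusted p = 0.0487). Hspa5 was not called with all arrays (0.69, adjusted p = 0.636) or without the 2 (1.18, adjusted p = 0.0835), although its 3 knockout livers (8.14 to 8.50) lay above the 4 wild-type livers (6.99 to 7.29).

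Neutrophil markers also stood apart in these livers. The summed log2 level of the neutrophil markers was 5.79 to 6.59 in wild-type livers at 6 h and 7.24 to 8.08 in the 3 other knockout livers, with 3.22 in knockout 6 h replicate 1 and 8.33 in knockout saline replicate 1, against 0.586 to 2.07 in the other knockout saline livers. Of the neutrophil markers 0 were called between genotypes at 6 h, with a median difference of 1.70 without the 2 arrays. The part of these cells in the members' values was not tested.

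**Figure D5:**
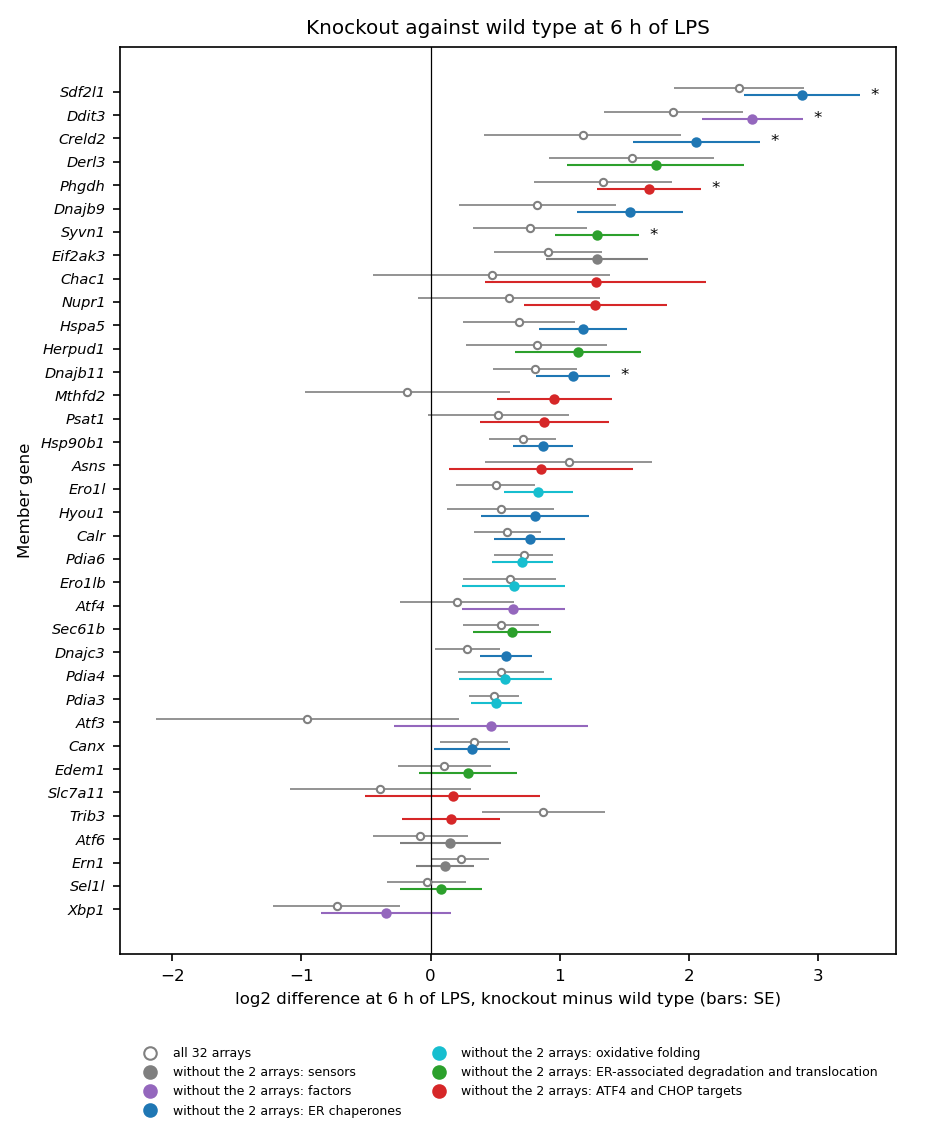
Knockout minus wild-type log2 difference at 6 h of LPS for each member, with all arrays (open) and without the 2 arrays that stood apart (filled), with standard errors as bars and an asterisk where the adjusted p without the 2 was below 0.05. The 6 asterisks lie at Sdf2l1, Ddit3, Creld2, Phgdh, Syvn1 and Dnajb11, all to the right of 0.

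In saline livers 1 member was called between genotypes. Asns was at 2.67 to 3.94 (median 3.47) in knockout and 0.34 to 1.77 in wild-type livers, 4.90-fold higher in the knockout (log2 2.29 ± 0.53, adjusted p = 0.0476) with no overlap, where 0.333% of all genes were called and 0.135% were higher. The call was at the threshold: leaving out any one of the 12 livers gave 2.14 to 2.44 with adjusted p from 0.0562 to 0.148, and without the 2 arrays the difference was 2.29 ± 0.57 (adjusted p = 0.0844).

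At 20 h 0 members were called between genotypes, with all arrays (3 at an unadjusted p below 0.05, 0.323% of all genes called) or without the 2 (9 unadjusted, 0.521% called). The median difference of the members was -0.19. Chaperones were lower in the knockout by sign in 10 of 10 (median -0.40) and oxidative folding genes higher in 5 of 5 (median 0.09). Psat1 differed by -1.53 ± 0.45 (adjusted p = 0.185, or 0.0623 without the 2).

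Whether the LPS response itself differed between genotypes was tested as an interaction. At 6 h 0 members passed (4 at an unadjusted p below 0.05, 0.125% of all genes called), also without the 2 arrays (13 unadjusted, 0.151% called), where Ddit3 came nearest (2.28 ± 0.50, adjusted p = 0.0516). At 20 h 0 passed (8 unadjusted, 0.0417% called), with Asns at -2.47 (unadjusted p = 0.00247, adjusted p = 0.395) and Psat1 at -2.26 (unadjusted p = 0.0012, adjusted p = 0.334). The shares of all genes here are at the adjusted threshold and are no measure for the unadjusted counts. A difference in response of the single members was therefore not shown at this number of livers.

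Other genes of the same pathways were taken from 4 lists of related genes and are given for wild-type livers at 20 h, where 16.5% of all genes were called higher and 20.1% lower. Of 23 further genes of ER folding and transport 3 were higher and 2 lower, and of 12 of ER-associated degradation 4 were higher and 3 lower. Of 29 genes of the amino acid response 11 were higher and 5 lower, and of 15 regulators 2 were higher and 2 lower. The share higher was below that of all genes for the first and the last of these lists. Dnajc10, an ER disulfide reductase, rose by 1.57 ± 0.27 (adjusted p = 3.89e-05) and Ube2g2, a ubiquitin-conjugating enzyme of this degradation, by 1.02 (adjusted p = 0.00176), while Derl2, a relative of Derl3, fell by 0.72 (adjusted p = 0.0223). Of the hormones downstream of ATF4, Gdf15 rose by 2.71 (adjusted p = 0.00907) and Fgf21 by 2.79 ± 1.09 (adjusted p = 0.0435). Cth, an enzyme of cysteine synthesis, fell by 3.75 ± 0.45 (adjusted p = 4.15e-07).

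In knockout livers at 6 h with all arrays, 1 gene of these lists was called, the regulator Eif2ak2, which encodes the kinase PKR (2.67, adjusted p = 0.0476), where 2.61% of all genes were called. Without the 2 arrays, where 12.9% of all genes were higher and 16.3% lower, the lists gave 7 higher and 0 lower of the ER folding and transport genes, 1 and 0 of the degradation genes, 10 and 6 of the amino acid response genes and 5 and 2 of the regulators. Between genotypes at 6 h with all arrays, 1 of 23 ER folding and transport genes and 0 of 12 degradation genes were called. Of 29 amino acid response genes and 15 regulators, 1 each was called. All were higher in the knockout, where 1.26% of all genes were called, 0.88% higher. Wfs1, an ER membrane protein, was higher by 1.34 (adjusted p = 0.0294). Sesn2, a stress-induced regulator of mTORC1, was higher by 1.998 (adjusted p = 0.0204) and Bbc3, the cell death protein PUMA, by 2.12 (adjusted p = 0.00246). Without the 2 arrays these were 1.55 (adjusted p = 0.0127), 2.21 (adjusted p = 0.00215) and 1.75 (adjusted p = 0.00877). There 1 amino acid response gene was called lower, where 1.34% of all genes were called, 0.437% lower.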

How the data were processed

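Agilent arrays were scanned and read with Feature Extraction 10.7.1.1, per the file headers. The deposited scanner files hold a processed intensity per spot, background-subtracted by that software. The authors' deposited table of log2 values, whose scale and centring steps are not given in the sources used here, served as an alternative (23916 probes, 16296 genes, 35 members). From the intensities, log2 minus the array's 75th percentile was computed, outlier spots (84 to 232 per array) were left out, spots of a probe were averaged, a probe was kept where the software set it well above background on 4 or more arrays (28345 of 41174), and each gene was read on its brightest probe. This gave 360 missing values, 2 of them in members (Xbp1 in wild-type 20 h replicate 2, Atf3 in knockout saline replicate 3), which the fit left out. limma 3.58.1 (R 4.3.3) fitted 6 group means to all 32 arrays, with eBayes and Benjamini-Hochberg adjustment over 19204 genes. The fit was tested on simulated data.

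The members and lists were chosen with earlier results of these data known. All members were computed, and those chosen for values by group were, in each role, up to 3 called with the largest size of wild-type change at 6 h or 20 h and the brightest not called. Others are given by counts, or by values where a call between genotypes or a listed result turned on them, chosen after their values were seen. Replicate numbers did not pair the mice: deviations of 72 same-numbered pairs correlated at -0.684 to 0.339, with 25 over 0.1. No 2 arrays were duplicates (highest correlation 0.984). Each sample was taken as 1 mouse, and p-values measure the spread between these samples. The arrays lay on 9 slides with 3 scan dates. Alternatives changed the normalization, filter, probe summary, samples fitted, slide, scan date and replicate block, and left out each array. The number of arrays limits the precision. Probe positions refer to mm9, and promoter windows to RefSeq, GRCm38.p6.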

Additional observations from a re-analysis of the deposited data

Results flagged for a closer look

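Over 18 members and 6 groups, 15 of 108 sets of livers held one liver far from the rest by Dixon's criterion, which chance meets in about 1 of 20. Of the 15, 7 came from the 2 arrays that stood apart. Knockout 6 h replicate 1 was low in Atf3 (-2.28, next 3.03), Creld2 (4.68, next 7.95), Hspa5 (6.32, next 8.14), Syvn1 (5.82, next 7.78) and Slc7a11 (-5.80, next -3.68). Knockout saline replicate 1 was high in Atf3 (3.86, next -1.46) and Herpud1 (8.41, next 6.45).

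The other 8 came from livers of 3 groups. Knockout 20 h replicate 6 was high in Atf3 (2.60, next 0.25) and Hspa5 (8.48, next 7.45), and knockout 20 h replicate 4 was low in Psat1 (-2.06, next -0.51). Wild-type saline replicate 6 was low in Hspa5 (5.80, next 6.61) and Pdia6 (5.28, next 6.11), and wild-type saline replicate 4 in Ero1l (-1.42, next -1.17). At 6 h, wild-type replicate 2 was high in Atf3 (3.73, next 2.71) and wild-type replicate 1 low in Herpud1 (6.11, next 6.72).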

How the results depend on the processing

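Of 10380 recomputed values of single members, 9958 kept their side of the threshold, 199 lost the call, 223 gained it and 0 changed direction while called. Values called in neither fit are among the 9958 whether or not they changed direction. The median of the ATF4 and CHOP targets was 1.99 at 20 h and 0.68 at 6 h in wild-type livers after normexp correction with quantile normalization, and 0.89 at 6 h on the authors' deposited table. Leaving out each array in turn gave 2.38 to 2.73 and 1.23 to 1.69 for these, 0.80 to 0.97 at 20 h and -0.26 to -0.01 at 6 h for the chaperones. Without Slc7a11, an alternative chosen after seeing the data, the target medians were 2.74 at 20 h and 1.03 at 6 h.

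Counts of members called moved most for the knockout. Percentages in brackets here are the share of all genes called in the same fit. Without both arrays that stood apart the counts became 19 at 6 h (29.2%), 14 at 20 h (34.9%), 10 between 20 h and 6 h (22.4%), 6 between genotypes at 6 h (1.34%) and 0 in saline (0.354%). Fitting only the groups compared gave 15 in wild-type livers at 6 h (34.5%) and 5 in the knockout at 20 h (16%). It gave 0 between knockout 20 h and 6 h (1.62%) and 0 between genotypes at 6 h (0.0365%). For knockout 20 h against 6 h, the count was 1 with all arrays (15.6%). There normexp gave 5 (15.8%), quantile normalization 4 (15.4%), scan date as a block 4 (20.1%), a stricter filter 3 (19.6%) and the authors' deposited values 5 (18.9%). The call between genotypes in saline became 0 with the mean over probes (0.286%), no filter (0.172%), scan date as a block (0.396%) or slide as a block (0.203%). The call at 6 h became 0 with slide as a block (0.323%). Within scan date 2 the knockout had 9 called between 20 h and 6 h (9.73%), 18 at 6 h (17.7%) and 4 at 20 h (2.05%). Within date 3 it had 0 at 20 h (0%). Within-date counts of LPS changes with an arm of 1 array are left out. Between genotypes 0 were called within any date, where at 6 h each date has an arm of 1 array, so that count says nothing on stability, and the 6 h values of wild type within dates 1 and 2 likewise rest on 1 liver each.

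Leaving out each array in turn gave 8 to 12 at 6 h, 19 to 22 at 20 h and 15 to 20 between them in wild type. In the knockout it gave 0 to 13 at 6 h (13 without saline replicate 1), 7 to 12 at 20 h and 0 to 7 between them (7 without 6 h replicate 1). Between genotypes it gave 0 to 2 at 6 h, 0 to 0 in saline and at 20 h, and 0 for both interactions. The share of all genes was not computed for these fits. Replicate number as a block gave 19 at 20 h (35.3% of all genes called), 9 at 6 h (26%) and 17 between them (31.6%) in wild type. In the knockout it gave 8 (24.6%), 0 (0.00521%) and 0 (12.4%), with 1 between genotypes at 6 h (0.922%) and 1 in saline (0.297%). Depth is limited for dim genes: Slc7a11 and, in saline livers, Psat1 lay partly below background.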
